A study of Mus musculus with 5 samples.

Results

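Tight junction gene expression was examined through 9 genes: the claudin genes *Cldn1*, *Cldn3*, *Cldn4*, *Cldn5*, *Cldn7* and *Cldn8*, the occludin gene *Ocln*, the scaffold gene *Tjp1* and the adhesion molecule gene *F11r*. A gene was included when its symbol in the deposited expression table equalled one of these names, and all 9 were found among the 24319 genes used. Expression had been measured by paired-end bulk RNA-seq in 5 libraries of mouse mammary luminal cells, the epithelial cells that line the lumen of ducts and alveoli. By label, 3 libraries were wild type (replicates 1, 2 and 3) and 2 were *Brca1* knockout (replicates 4 and 5). The cells had been sorted as live CD24-high, CD29-low cells after a lineage depletion that removes blood and endothelial cells. The study's knockout mice carry floxed *Brca1* alleles and a Cre transgene under the MMTV promoter, which is active in mammary epithelium, on a mixed genetic background. The gate described for the bulk cells did not ask for the Cre reporter, so cells in which Cre had not acted could be present. Its text speaks of BRCA1-deficient luminal cells, whereas the labels call replicates 1 to 3 wild type, so each library is named here by its label. Gland donors are described for the study as adult female mice, virgin or in mid-pregnancy. The alleles and stage behind each library, and whether the libraries came from separate animals, are not given in the sources used here, and p-values measure only the spread between these libraries.

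Tight junctions seal the space between neighbouring epithelial cells and keep the apical and basolateral membranes apart. Claudins are membrane proteins with 4 spans whose strands form the seal and set which ions pass, occludin and the JAM proteins lie beside them, and the ZO scaffolds tie them to actin. In the mammary gland the junctions of the secretory epithelium are leaky during pregnancy and close as lactation begins, and a class of mammary tumors is named for its low claudin expression.

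*Brca1* itself was at 1.30, 1.32 and 0.234 FPKM in the wild type-labelled libraries (replicates 1 to 3) against 1.198 and 1.34 FPKM in the knockout-labelled ones (replicates 4 and 5). FPKM counts the fragments of a gene per length of transcript and per sequencing depth of the library. The gene-level value therefore did not separate the labels, and a deletion of some exons cannot be read from it. Luminal identity was clear from the fixed markers, with *Krt8*, a keratin of simple epithelia, between 2240 and 3653 FPKM and the adhesion gene *Epcam* between 570 and 1062 FPKM. The basal keratin gene *Krt14* lay between 3.65 and 104 FPKM. The table holds no read totals, but the spacing of its low values gave an estimate of 6305350 fragments for replicate 1. Relative to it, estimated depth was 2.08 in replicate 2 and 4.90 in replicate 3, against 1.01 in replicate 4 and 3.42 in replicate 5.

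The promoter is shown first for the pair of neighbours that gave the most claudin transcript and for the member that varied least. *Cldn4* and *Cldn3* lie on chromosome 5 of mm10 and point away from each other, with 39.3 kb between their starts. RefSeq sequence of build GRCm38.p6 is printed 5′ to 3′ on each gene's strand, and capitals mark CACCTG, a letter string that Snail and Zeb repressors can bind (its other strand reads CAGGTG), and CCGCCC, the string of GC boxes bound by Sp factors (GGGCGG on the other strand). The *Cldn3* window is chr5:134985964-134986213 on the plus strand, the *Cldn4* window is chr5:134946935-134947184 on the minus strand, and the *F11r* window is chr1:171437311-171437530 on the plus strand, which leaves out the last 30 bases before the RefSeq start.
Cldn3: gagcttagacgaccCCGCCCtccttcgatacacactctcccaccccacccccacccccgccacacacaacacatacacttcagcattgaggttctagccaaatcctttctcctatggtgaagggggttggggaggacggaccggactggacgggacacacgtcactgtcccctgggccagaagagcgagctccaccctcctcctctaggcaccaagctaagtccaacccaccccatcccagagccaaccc
Cldn4: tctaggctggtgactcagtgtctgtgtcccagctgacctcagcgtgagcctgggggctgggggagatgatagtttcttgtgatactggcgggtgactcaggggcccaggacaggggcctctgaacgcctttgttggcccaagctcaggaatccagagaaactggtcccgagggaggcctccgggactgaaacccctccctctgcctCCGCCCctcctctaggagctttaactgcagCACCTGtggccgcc
F11r: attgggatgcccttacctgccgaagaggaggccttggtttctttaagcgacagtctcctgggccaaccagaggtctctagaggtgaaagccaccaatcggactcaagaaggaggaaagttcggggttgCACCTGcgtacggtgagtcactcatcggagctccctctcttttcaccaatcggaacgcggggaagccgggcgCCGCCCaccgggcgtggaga

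Of the 9 genes, 8 had a RefSeq promoter entry, in 10 windows. Within the 250 bases before the start, CAGGTG on either strand was found in 4 of these 8 genes, where 19.4% of the 27025 genes with an entry had it. The matches began at -14 in *Cldn4*, -122 in *F11r*, -97 and -57 in *Cldn7*, and -213 and -68 in *Ocln*, counted from the base before the start. GGGCGG on either strand was found in 8 of 8 genes, against 35.4% of all genes, and TATAAA on either strand in 0 of 8, against 14.3%. In *Cldn3* only the GC box string was present, at -236. No match overlapped another, and a match is a description of letters, not of binding.

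Of the 9 genes, 8 were at 10 FPKM or more in each of the 5 libraries, and *Cldn5* stayed under 1 FPKM. The levels spanned a steep order, led by *Cldn4* (mean 673 FPKM ± 188, SD, n = 5) and followed by *Cldn3* (370 ± 61.9) and *Cldn7* (232 ± 31.5). A gap came after these, with *F11r* at 66.1 ± 4.80 and *Cldn1* at 55.9 ± 11.3 FPKM. *Tjp1* (22.9 ± 3.46), *Ocln* (20.6 ± 3.47) and *Cldn8* (13.4 ± 2.78) formed a lower group, and *Cldn5* was last. Because FPKM is per length of transcript, these levels can be set beside each other. *Cldn4* stood above *Cldn3* and *Cldn3* above *Cldn7* in 5 of 5 libraries. The ranges of *Cldn4* and *Cldn3* still overlapped, since the lowest *Cldn4* value (416) was under the highest *Cldn3* value (432). Overlapping neighbours were also *F11r* and *Cldn1*, and *Tjp1* and *Ocln*, each in the stated order in 4 of 5 libraries. All other neighbours in the order had separate ranges.

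**Figure D1:**
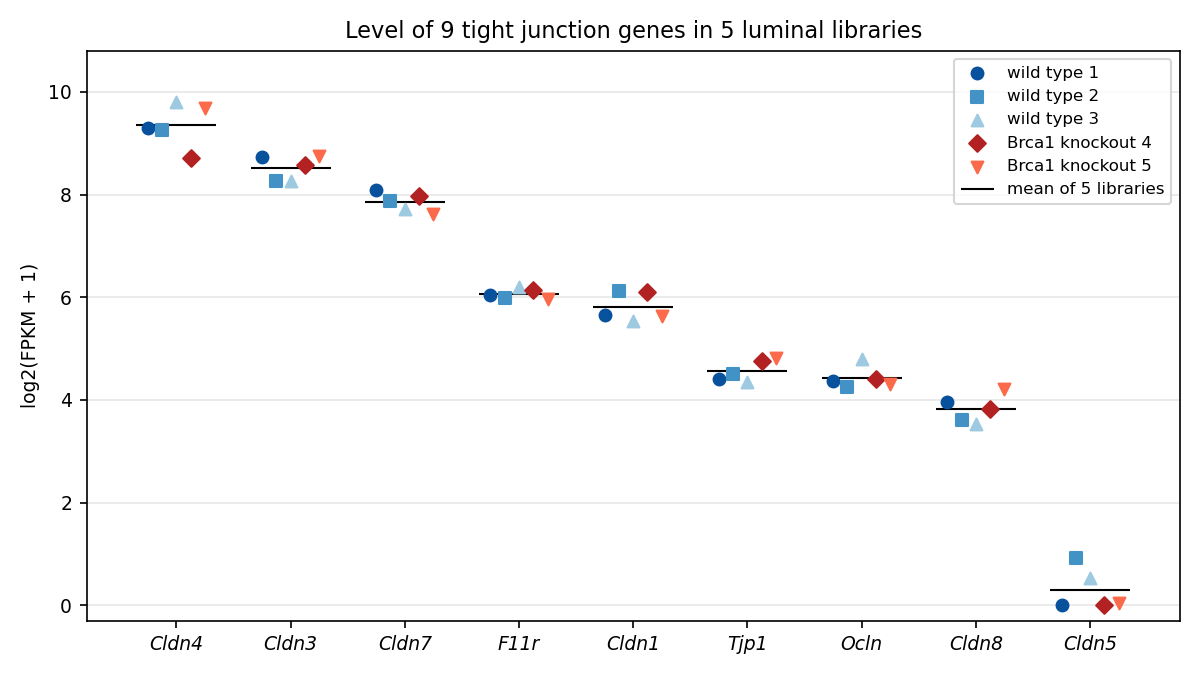
Level of each of the 9 genes in log2(FPKM + 1) on the vertical axis, with 1 symbol per library (blue for wild type, red for Brca1 knockout, by label) and a line at the mean of the 5 libraries. Cldn4, Cldn3 and Cldn7 lie highest, 8 genes are at 10 FPKM or more throughout, and Cldn5 is near 0.

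*Cldn4* (ENSMUSG00000047501, chromosome 5, 134945119 to 134946934, minus strand) encodes a barrier-forming claudin of many simple epithelia. It was at 625, 611 and 892 FPKM in wild type-labelled replicates 1 to 3, against 416 and 820 FPKM in knockout-labelled replicates 4 and 5. The pair of knockout-labelled libraries held the lowest value and the second highest, so that the labels overlapped widely. *Cldn4* had the widest spread of the 8 well expressed genes, with a coefficient of variation of 28.0% and a highest library 2.15 times the lowest. The fitted log2 fold change of knockout over wild type was -0.26 (SE 0.37, 95% interval -1.19 to 0.68, adjusted p = 0.94 by limma). This and all later fold changes are on the log2(FPKM + 1) scale, which understates changes of low genes. Without replicate 4 the value was 0.23, and without replicate 5 it was -0.75.

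*Cldn3* (ENSMUSG00000070473, chromosome 5, 134986214 to 134987472, plus strand), another sealing claudin, was at 426, 307 and 305 FPKM in replicates 1 to 3, against 382 and 432 FPKM in replicates 4 and 5. Wild type-labelled replicate 1 lay with the knockout-labelled libraries, above the other wild type-labelled libraries. Its log2 fold change was 0.25 (SE 0.24, 95% interval -0.35 to 0.85, adjusted p = 0.92), and it was 0.41 without replicate 1 and 0.16 without replicate 5. The adjacent genes did not keep one ratio: *Cldn4* over *Cldn3* was 1.47, 1.99 and 2.92 in replicates 1 to 3 and 1.09 and 1.90 in replicates 4 and 5. The ratio was highest in replicate 3, where *Cldn4* was at its highest and *Cldn3* at its lowest. It overlapped between the labels (two-sided exact permutation test, p = 0.4; with 3 and 2 libraries its smallest possible p is 0.2).

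*Cldn7* (ENSMUSG00000018569, chromosome 11, 69964779 to 69967885, plus strand) encodes a claudin found at the basolateral membrane as well as at the junction, where it binds the EpCAM protein. It was at 273, 234 and 208 FPKM in the wild type-labelled libraries and at 251 and 195 FPKM in the knockout-labelled ones. The knockout-labelled values were the second highest and the lowest of the 5. A log2 fold change of -0.099 (SE 0.22, 95% interval -0.67 to 0.47, adjusted p = 0.96) was fitted, and it was 0.083 without replicate 5 and 0.0014 without replicate 1. *Cldn7* over *Epcam* was 0.392, 0.411 and 0.196 in replicates 1 to 3 and 0.309 and 0.316 in replicates 4 and 5. Replicate 3 was the lowest for this ratio, since *Epcam* was highest there while *Cldn7* was not (exact permutation test between the labels, two-sided, p = 1).

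*Cldn1* (ENSMUSG00000022512, chromosome 16, 26356642 to 26371841, minus strand) encodes a claudin known for the water barrier of the skin. Its values were 49.4, 68.9 and 45.3 FPKM in replicates 1 to 3 and 67.4 and 48.7 FPKM in replicates 4 and 5. One library of each label was high, replicates 2 and 4, and the other 3 lay close together. The log2 fold change was 0.093 (SE 0.27, 95% interval -0.58 to 0.77, adjusted p = 0.97), and it was -0.14 without replicate 4, -0.027 without replicate 3 and -0.018 with median-of-ratios scaling. *Cldn8* (ENSMUSG00000050520, chromosome 16, 88560828 to 88563183, minus strand), a claudin of tight epithelia such as the distal nephron, was at 14.5, 11.2 and 10.6 FPKM and at 13.2 and 17.5 FPKM. Wild type-labelled replicate 1 lay between the knockout-labelled libraries. Here the log2 fold change was 0.32 (SE 0.23, 95% interval -0.25 to 0.89, adjusted p = 0.92), and it was 0.12 without replicate 5 and 0.51 without replicate 4.

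Together, *Cldn4*, *Cldn3* and *Cldn7* made up 93.2% ± 1.34 (SD, n = 5) of the summed FPKM of all 32 claudin genes, with 94.1%, 92.2% and 93.6% in replicates 1 to 3 and 91.5% and 94.7% in replicates 4 and 5. This joint share lay near its ceiling, where a share can move little, so its narrow range cannot be set against the wider ranges of the shares within it. *Cldn4* gave 44.4%, 48.9% and 59.4% in the wild type-labelled libraries and 36.3% and 53.7% in the knockout-labelled ones. *Cldn3* gave 30.3%, 24.6% and 20.3% and then 33.3% and 28.3%. Where *Cldn4* was largest, in replicate 3, *Cldn3* was smallest, and where *Cldn4* was smallest, in replicate 4, *Cldn3* was largest. Shares of one total cannot move independently. *Cldn7* gave 17.3% ± 3.87, *Cldn1* 4.22% ± 1.36 and *Cldn8* 0.985% ± 0.188. The summed claudin level was 1407, 1250 and 1502 FPKM in replicates 1 to 3 and 1147 and 1528 FPKM in replicates 4 and 5. The knockout-labelled libraries were the lowest and the highest of the 5, and their mean differed by -48.6 FPKM from the wild type mean of 1386 ± 127 (SD, n = 3; exact permutation test, two-sided, p = 1). Without replicate 3 the difference was 9.32 FPKM, without replicate 4 it was 142 FPKM, and without replicate 5 it was -239 FPKM. It was -117 FPKM without replicate 2, and -164 FPKM with median-of-ratios scaling (exact permutation test, two-sided, p = 0.6).

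**Figure D2:**
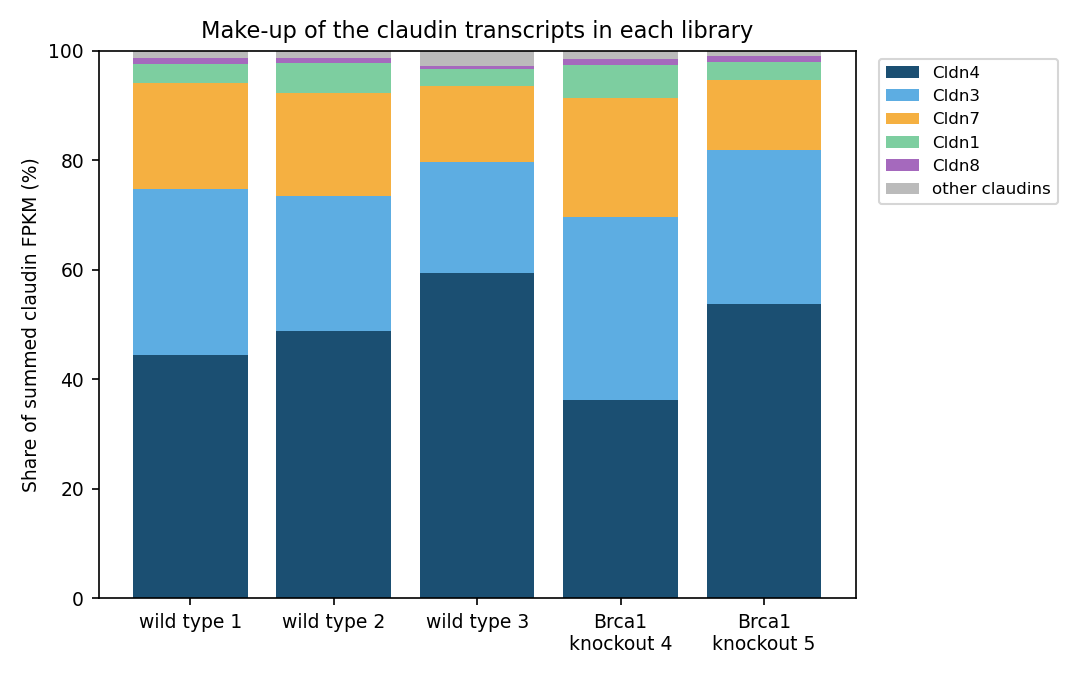
Share of the summed FPKM of all 32 claudin genes, in percent on the vertical axis, for each of the 5 libraries named by label and replicate, with Cldn5 counted under other claudins. Cldn4, Cldn3 and Cldn7 give between 91.5% and 94.7% of each bar, and the Cldn4 part varies from 36.3% in replicate 4 to 59.4% in replicate 3.

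The remaining 26 claudin genes were low. Of these, 9 were listed at 0 in every library and 20 stayed under 1 FPKM in every library, and 5 had a mean of at least 1 FPKM. *Cldn12*, an unusual claudin without the common scaffold-binding tail, was at 7.84, 9.47 and 4.54 FPKM in replicates 1 to 3, against 7.37 and 6.05 FPKM in replicates 4 and 5. *Cldn23* was between 2.17 and 3.69 FPKM. *Cldn10*, which encodes a claudin that forms ion pores, reached 27.1 FPKM in wild type-labelled replicate 3, while the rest ranged from 0.583 to 2.82 FPKM. So in replicate 3 *Cldn10* rather than *Cldn8* was the fifth claudin by level. *Cldn6*, best known from embryonic epithelium, was at 0.803, 1.26 and 3.59 FPKM in the wild type-labelled libraries and at 0.114 and 0.168 FPKM in the knockout-labelled ones. These groups did not overlap, and the log2 fold change was -1.22 (SE 0.47, unadjusted p = 0.045, adjusted p = 0.92). It was the 1 of these 5 claudins that was lower without overlap, and *Cldn34c1* was the 1 that was higher. Over all genes tested 5.77% were lower and 17.5% higher without overlap. *Cldn34c1* was higher in both knockout-labelled libraries, at 2.69 and 2.57 FPKM against 1.87, 1.37 and 0.719 FPKM, but it is one of 9 *Cldn34* genes in the table, close copies among which reads may be split, so this value is uncertain.

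*Ocln* (ENSMUSG00000021638, chromosome 13, 100496507 to 100552718, minus strand) encodes occludin, a membrane protein enriched where tight junction strands meet. It was at 19.6, 18.0 and 26.7 FPKM in wild type-labelled replicates 1 to 3, against 20.1 and 18.9 FPKM in knockout-labelled replicates 4 and 5. Replicate 3 was alone above the others, which lay between 18.0 and 20.1 FPKM. With all libraries the log2 fold change was -0.11 (SE 0.22, 95% interval -0.67 to 0.45, adjusted p = 0.95), and without replicate 3 it was 0.052. *F11r* (ENSMUSG00000038235, chromosome 1, 171437535 to 171464603, plus strand) encodes JAM-A, an immunoglobulin-like adhesion molecule of the junction. Its values were 65.3, 62.0 and 72.3 FPKM and then 69.7 and 61.2 FPKM. *F11r* was the steadiest of the 8 well expressed genes, with a coefficient of variation of 7.27%, and its labels overlapped. The SD of its log2 values was 0.10, and 5.62% of the 818 genes within 1.5-fold of its level had a smaller one (median 0.27). Its log2 fold change was -0.023 (SE 0.18, 95% interval -0.47 to 0.42, adjusted p = 0.99), and it was 0.037 without replicate 3 and 0.068 without replicate 5.

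*Tjp1* (ENSMUSG00000030516, chromosome 7, 65296165 to 65527781, minus strand) encodes ZO-1, the scaffold that binds the tails of claudins and occludin and links them to actin. It was at 20.3, 21.8 and 19.2 FPKM in the wild type-labelled libraries and at 26.0 and 27.0 FPKM in the knockout-labelled ones. *Tjp1* was the one member whose labels did not overlap, with both knockout-labelled libraries above all wild type-labelled ones. The mean was 26.5 FPKM against 20.4 ± 1.26 FPKM (SD, n = 3), a log2 fold change of 0.36 (SE 0.16, 95% interval -0.049 to 0.77, unadjusted p = 0.074). After Benjamini-Hochberg adjustment over the 11481 genes tested by limma the p was 0.92, so the difference did not pass the test. With one library left out at a time the log2 fold change stayed between 0.32 and 0.40, and with median-of-ratios scaling it was 0.25.

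Across the members, 8 of 9 had a mean of at least 1 FPKM and were tested, and 0 were called at an adjusted p under 0.05, where 0% of the 11481 genes tested were called. An unadjusted p under 0.05 was reached by 0 of the 8 members and by 372 genes in all (3.24%), and limma without its trend called 0 genes as well (381 at an unadjusted p under 0.05). Of the 8 members, 4 had a higher and 4 a lower fitted mean in the knockout-labelled libraries. Both knockout-labelled libraries lay above all wild type-labelled ones for 1 member, *Tjp1* (12.5%), and for 17.5% of all genes tested, so the members' count was near the background. For 0 members did both lie below, against 5.77% of all genes. With one library left out, a count of members without overlap holds *Tjp1* by construction. The labels of 3 members did not overlap in either direction without replicate 1, of 5 without replicate 4 and of 2 without replicate 5. Over all genes 45.5%, 42.0% and 41.9% did not overlap in these cases. Without replicate 2 and without replicate 3 the count was 1, *Tjp1*, against 32.3% and 39.1% of all genes. The median log2 fold change was 0.035 over the members and 0.11 over all genes tested. All genes were not balanced between the labels, since 65.5% of them had a higher mean in the knockout-labelled libraries, and 51.4% did after median-of-ratios scaling, which brought the median of all genes to 0.0099. With that scaling the median of the members was -0.077.

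**Figure D3:**
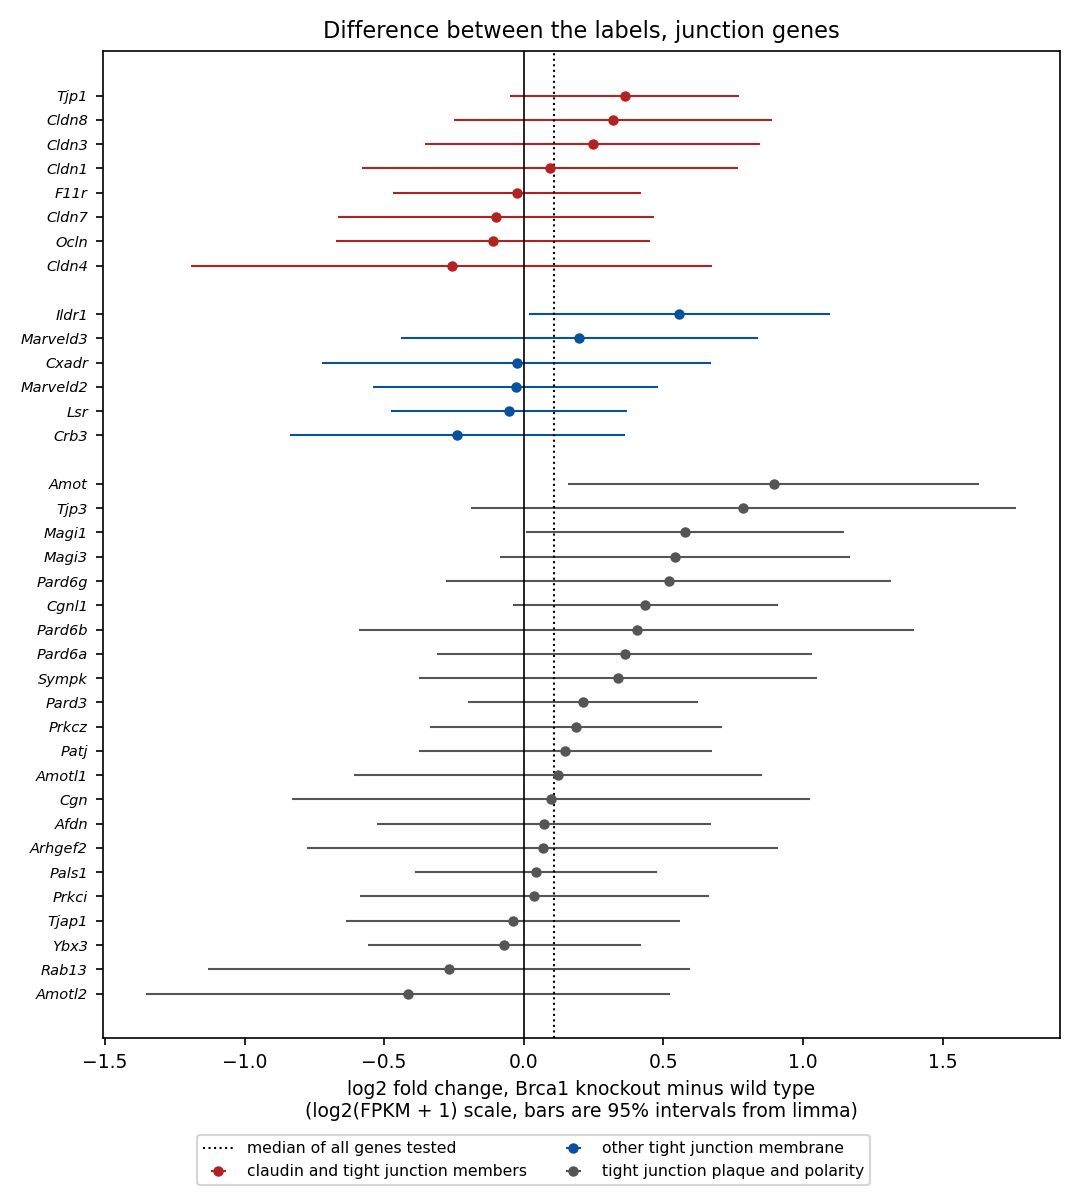
Log2 fold change of Brca1 knockout over wild type by label, on the log2(FPKM + 1) scale (horizontal axis), for the 8 tested members (red), 6 other tight junction membrane genes (blue) and 22 plaque and polarity genes (grey), with 95% intervals from limma and a dotted line at the median of all genes tested (0.11). The intervals of all 8 members span 0, and Tjp1 has the highest member value, 0.36.

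Wild type-labelled replicate 3 stood at one end of the range for most members, with 3 of the 8 tested members highest there (*Cldn4*, *Ocln* and *F11r*) and 4 lowest (*Cldn1*, *Cldn3*, *Cldn8* and *Tjp1*). Over all genes tested, 18.5% were highest and 51.9% lowest in that library. The 7 mature luminal markers, genes of the hormone-sensing luminal cells, were all highest in replicate 3, with summed levels of 42.7, 24.6 and 588 FPKM in replicates 1 to 3 and 16.5 and 21.5 FPKM in replicates 4 and 5. Their most abundant gene by mean, the growth factor gene *Areg*, reached 229 FPKM there, while the rest ranged from 3.58 to 13.04 FPKM. In replicates 2, 4 and 5 *Prlr*, the prolactin receptor gene, was above it, at 8.14, 5.61 and 10.3 FPKM. Both knockout-labelled libraries lay below all wild type-labelled ones for 4 of the 7 (57.1%, against 5.77% of all genes). Of the 7, 0 were called. Without replicate 3 the count was again 4 (against 15.6%), but leaving out a wild type-labelled library cannot undo a lack of overlap. The median log2 fold change of the 7 was -1.48 with all libraries and -0.49 without replicate 3. In the latter case 2 of the 7 were higher (28.6%, against 54.2% of all genes). The 7 milk genes, led by *Csn2*, summed to 28541 FPKM in replicate 3 and to between 68704 and 91288 FPKM elsewhere. *Lalba*, the alpha-lactalbumin gene of this list, went the other way, at 599 FPKM in replicate 3 and from 130 to 185 FPKM elsewhere. The part of these markers in the member values was not tested. In bulk RNA, fewer cells of a type and less RNA per cell cannot be told apart.

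**Figure D4:**
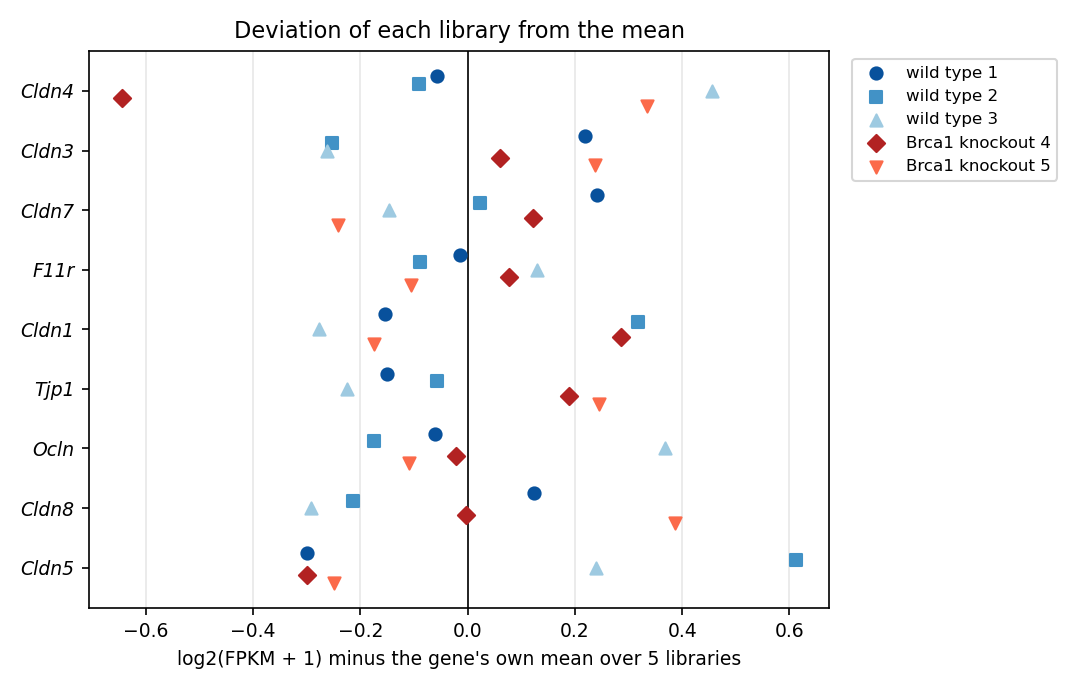
Deviation of each library from the gene's own mean, in log2(FPKM + 1) on the horizontal axis, for the 9 genes in order of level, with 1 symbol per library. Tjp1 is the one tested gene with both knockout symbols (red) right of all wild type symbols (blue), and replicate 3 lies at the right end for Cldn4, F11r and Ocln and at the left end for Cldn3, Cldn1, Tjp1 and Cldn8.

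*Cldn5* (ENSMUSG00000041378, chromosome 16, 18776847 to 18778262, plus strand) encodes the main claudin of endothelial cells, the lining of blood vessels. It was listed at 0 in wild type-labelled replicate 1, at 0.881 and 0.453 FPKM in wild type-labelled replicates 2 and 3, at 0 in knockout-labelled replicate 4 and at 0.0360 FPKM in knockout-labelled replicate 5. At the estimated depths 1 fragment on its transcript was worth 0.112, 0.0539 and 0.0229 FPKM (replicates 1 to 3) or 0.110 and 0.0328 FPKM (replicates 4 and 5). These levels thus rest on about 16.4 and 19.8 fragments in replicates 2 and 3 and about 1.10 in replicate 5, and the zeros of replicates 1 and 4 allow up to 0.336 and 0.331 FPKM (3 fragments). These limits cover counting error only. The mean of 0.274 FPKM was under the minimum for testing, so no fold change was fitted. The 10 endothelial markers summed to 3.56, 14.7 and 29.1 FPKM in replicates 1 to 3 and to 2.45 and 2.08 FPKM in replicates 4 and 5, so replicates 2 and 3, the highest for *Cldn5*, were also the highest for these markers. The most abundant marker by mean was *Vwf*, a clotting factor gene, at 1.67, 2.63 and 15.4 FPKM and then 1.24 and 0.633 FPKM, and 3 of the 10 were under 1 FPKM in every library. *Cdh5*, the endothelial cadherin gene, was at 2.004 and 1.75 FPKM in replicates 2 and 3 and at most 0.158 FPKM in the others. The part of endothelial RNA in the *Cldn5* values was not tested.

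**Figure D5:**
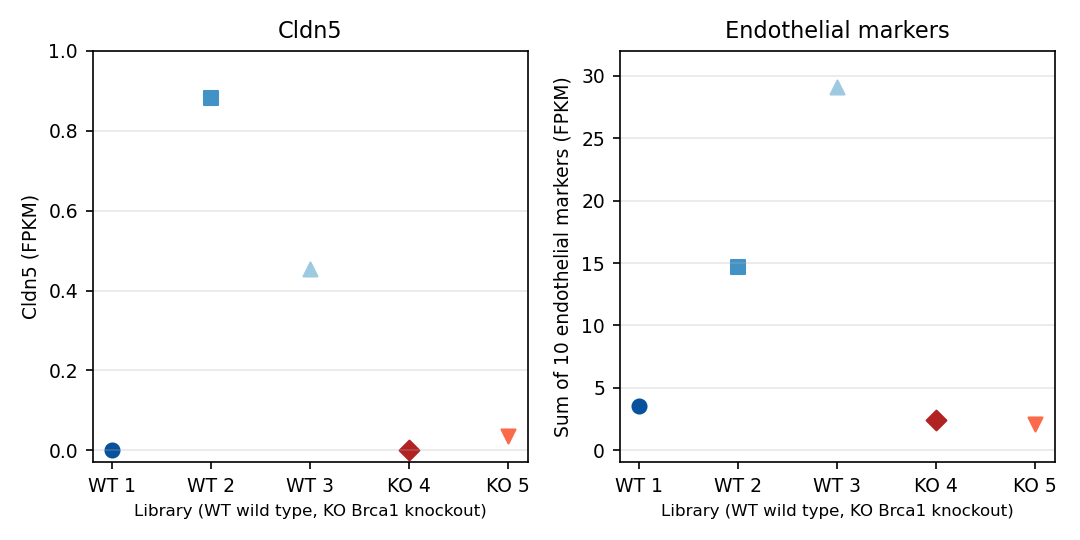
Cldn5 (left) and the sum of 10 endothelial markers (right), both in FPKM on linear axes, in each library (WT for wild type and KO for Brca1 knockout, by label). Replicates 2 and 3 are the highest in both panels, at 0.881 and 0.453 FPKM for Cldn5 and at 14.7 and 29.1 FPKM for the markers.

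The other genes of the junction were read from fixed lists. Of 9 further membrane genes, 6 were tested and 0 were called. The fitted mean was higher in the knockout-labelled libraries for 2 and lower for 4 (median log2 fold change -0.027), where 65.5% of all genes were higher. This count turned with the library left out. Without replicate 3, 5 of 6 were higher (83.3%, against 54.2% of all genes, median 0.035). Without replicate 5, 4 of 6 were higher (66.7%, against 63.8%, median 0.030). Without replicate 2 it was 3 of 6 (50%, against 66.3%). *Lsr*, a receptor that recruits tricellulin to the corners of cells, led them by mean, at 59.8, 62.8 and 68.6 FPKM in replicates 1 to 3, against 59.7 and 63.1 FPKM in replicates 4 and 5. *Cxadr* followed at 45.4, 65.4 and 63.8 FPKM and 69.2 and 46.0 FPKM, above *Lsr* in replicates 2 and 4. Tricellulin itself, *Marveld2*, was between 15.0 and 20.3 FPKM, close to *Ocln*, its relative. Neither *Jam2* (mean 0.401 FPKM) nor *Jam3* (0.176) reached the level of *F11r*, the family member at 66.1 FPKM. *Ildr1*, a receptor of the same corner complex, was named after its values were seen, as the 1 gene of the list without overlap (16.7%), a share near the 17.5% of all genes that were higher without overlap. It was at 11.4, 10.9 and 10.2 FPKM against 13.6 and 19.8 FPKM, with a log2 fold change of 0.56 (SE 0.21, unadjusted p = 0.045, adjusted p = 0.92).

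Of the 24 listed genes of the cytoplasmic plaque and of cell polarity, 22 were tested and 0 were called. The fitted mean was higher in the knockout-labelled libraries for 18 (81.8%) and lower for 4, against 65.5% higher over all genes, and the median log2 fold change was 0.17. After median-of-ratios scaling 13 of 22 (59.1%) were higher, against 51.4%. In 7 genes (31.8%) both knockout-labelled libraries lay above all wild type-labelled ones, against 17.5% of all genes, and in 0 did both lie below. The count was 5 (22.7%) with that scaling, against 12.6% of all genes. The excess over all genes varied with the library left out. It was large without replicate 3, with 13 (59.1%) against 23.5%, without replicate 4, with 11 (50.0%) against 29.5%, and without replicate 2, with 9 (40.9%) against 23.3%. It was small without replicate 1, with 8 (36.4%) against 33.2%, and without replicate 5, with 7 (31.8%) against 29.4%, and in these cases the list's median log2 fold change was below that of all genes (differences of -0.0052 and -0.030). *Tjp3*, which encodes the scaffold ZO-3, was the highest of the 7, at 71.1, 56.3 and 30.1 FPKM in replicates 1 to 3, against 78.8 and 94.0 FPKM in replicates 4 and 5 (log2 fold change 0.79, SE 0.39, adjusted p = 0.92). The size of this fold change depends on replicate 3, which differed by -1.26 in log2(FPKM + 1) from the mean of the other libraries. *Cgnl1*, a relative of cingulin, was at 28.4, 23.1 and 29.6 FPKM against 38.3 and 35.1 FPKM, with a log2 fold change of 0.44. The other 3 of the 5 highest genes of the list by mean overlapped between the labels. *Ybx3*, the highest of all by mean, encodes a junction-associated nucleic acid binding protein. It was at 96.9, 100.2 and 77.4 FPKM against 87.9 and 85.3 FPKM (log2 fold change -0.069), below *Tjp3* in replicate 5. *Afdn*, the afadin gene, was at 25.4, 31.2 and 40.2 FPKM against 32.8 and 34.1 FPKM (0.073). *Prkci*, the gene of a polarity kinase, was at 25.9, 25.1 and 38.8 FPKM against 31.8 and 28.6 FPKM (0.037). All 3 had an adjusted p of at least 0.97. The other list members without overlap, named after their values were seen, were *Magi1*, *Magi3*, *Pard3*, *Pard6g* and *Amot*, which encode scaffold and polarity proteins. An unadjusted p under 0.05 by limma was reached by 2 of the 22 (9.09%, against 3.24% of all genes tested), *Magi1* (0.048) and *Amot* (0.026). *Tjp3* (mean 66.1 FPKM) stood above *Tjp1* (22.9) in each of the 5 libraries.

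Adherens junctions, which lie below the tight junctions and hold cells together through cadherins, had 9 tested genes, of which 5 were higher (55.6%, against 65.5% of all genes), 4 lower and 0 without overlap (against 17.5% higher and 5.77% lower), with a median log2 fold change of 0.053. After median-of-ratios scaling 2 of the 9 were higher (22.2%, against 51.4%), while without replicate 3 all 9 were (against 54.2%) and 2 of them did not overlap (22.2%, against 23.5%). Without replicate 1 the counts turned, with 4 of 9 higher (44.4%, against 68.7%) and 2 lower without overlap (22.2%, against 12.3%). *Cdh1*, the E-cadherin gene, was at 180, 214 and 260 FPKM in replicates 1 to 3, against 201 and 218 FPKM in replicates 4 and 5, below *Cldn3* in every library. *Ctnnb1*, the gene of beta-catenin, was at 136, 145 and 108 FPKM and 163 and 142 FPKM. The claudin partner gene *Epcam* overlapped between the labels, at 695, 570 and 1062 FPKM and 811 and 616 FPKM.

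Among regulators known to act on junction genes, the activators *Grhl1*, *Grhl2*, *Ovol1*, *Ovol2*, *Elf3* and *Klf5* were all tested and 0 were called. The fitted mean was higher in the knockout-labelled libraries for 5 (83.3%, against 65.5% of all genes) and lower for 1, and 4 were higher after median-of-ratios scaling (66.7%, against 51.4%). None was without overlap, against 17.5% of all genes higher and 5.77% lower. *Klf5* was at 76.3, 101 and 60.9 FPKM in replicates 1 to 3, against 95.03 and 113 FPKM in replicates 4 and 5. *Grhl2*, a direct regulator of claudin genes in epithelia, was at 7.87, 10.5 and 6.37 FPKM and 9.42 and 9.53 FPKM. *Elf3* reached 112 FPKM in replicate 3, while the rest ranged from 42.9 to 50.8 FPKM. The repressors were low, and 3 of 5 (*Snai2*, *Zeb1* and *Twist1*) were under 1 FPKM in every library. *Snai1*, the highest of them by mean, was at 1.838, 2.69 and 4.42 FPKM in the wild type-labelled libraries and at 1.825 and 0.632 FPKM in the knockout-labelled ones, just without overlap (log2 fold change -0.84, SE 0.40, adjusted p = 0.92). The size of this value depends on replicate 5, since replicate 4 was almost level with replicate 1. The summed repressor level was highest in replicates 2 and 3, at 5.81 and 6.02 FPKM, with the rest from 1.08 to 2.41 FPKM. The 8 fibroblast markers summed highest in the same libraries, to 132 and 97.6 FPKM where replicates 1, 4 and 5 gave 5.91, 9.73 and 14.9 FPKM, and 0 of 8 were at 0 in every library. By mean *Dcn* was the most abundant of them, through 51.3 FPKM in replicate 3, while *Col3a1* was above it in the other 4 libraries. The part of stromal RNA in the repressor values was not tested.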

How the data were processed

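Total RNA of sorted luminal cells had been made into NEBNext Ultra libraries and sequenced on Illumina HiSeq machines. The submitters' processing notes name Trimmomatic 0.35, TopHat2 2.0.13, Cufflinks 2.2.1 and mm10, and the annotation is not given in the sources used here. The authors deposited FPKM values per gene, with no counts, in a table of 24346 rows. In 27 rows the name had become a date, and these were left out. No pair of libraries was identical.

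Values were used as log2(FPKM + 1). The 11481 genes whose mean reached 1 FPKM were compared between labels with limma 3.58.1 (eBayes with trend, R 4.3.3) and Benjamini-Hochberg adjustment at 0.05. The fit was tested on simulated data of this layout (11481 genes, 200 of them changed). At an SD of 0.2 the fit called 198 of the 200 for a log2 change of 1 (10 false calls). At an SD of 0.5 it called 5 for a log2 change of 1 and 168 for a log2 change of 2. The SD of the tested members ran from 0.10 to 0.43. Every simulated gene had the same SD, whereas the SD of real genes differed, so these counts do not give the power for the members. Single values were compared by exact permutation tests. Depth was estimated from the steps of low FPKM times length over 873 genes with a single GENCODE M21 transcript over 3000 bases. Between 51.3% and 59.2% of values lay within 0.15 of a whole step (30% would by chance), so no counts were recovered and depths are approximate. Coordinates are those of GENCODE M21 (mm10).

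The genes named are the 9 members, other claudins with a mean of at least 1 FPKM, up to 5 genes per list by level, and per member the 3 genes of most similar profile (mean of at least 10 FPKM, SD of at least 0.3), except for *F11r*, to which a gene without any variation would have been nearer. *Jam2*, *Jam3*, *Ovol2* and the names beside small counts were added after their values were seen, and a few genes of the lists and profiles are not reported here. The members and lists were chosen with earlier results of these data known. The alternatives tried were a pseudocount of 0.1, scaling by median of ratios or quantiles, other filters on low values, limma without trend, the 6 claudin members in place of all claudins, and each replicate left out. The scripts ran in Python 3.11.15 with scipy 1.17.1, pandas 2.3.3 and numpy 2.4.6.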

Additional observations from a re-analysis of the deposited data

Results flagged for a closer look

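All 5 libraries were taken as one group, and 26 genes, list medians and sums were examined for a library far from the others by Dixon's criterion (0.71 for 5 samples), which chance meets in about 1 in 20 groups. The criterion was met by 2. *Ocln* reached 4.79 on the log2(FPKM + 1) scale in wild type-labelled replicate 3, while the rest ranged from 4.25 to 4.40. The median of the adipocyte markers was 0.0291 in replicate 3 and 0 in the other libraries, and all 5 of these genes were under 1 FPKM in every library.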

How the results depend on the processing

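Of the recomputed values, 134 kept their direction and their side of the threshold or moved by less than the spread, 7 moved further and 11 fold changes or differences of single genes and sums changed sign. The median log2 fold change of the members, not counted in these 11, also changed sign, from 0.035 to -0.077 with median-of-ratios scaling and to -0.00036 with quantile normalization. With each replicate left out, the number of genes called between labels ranged from 0 to 18 (2 without replicate 1, 18 without replicate 4, 4 without replicate 5, all small RNA genes and none a member). The number of members whose labels do not overlap ranged from 1 to 5. It was 3 without replicate 1, 5 without replicate 4 and 2 without replicate 5, where 45.5%, 42.0% and 41.9% of all genes did not overlap. Without replicate 2 and without replicate 3 it was 1, against 32.3% and 39.1% of all genes. Over these left-out fits the log2 fold change ranged from -0.14 to 0.32 for *Cldn1*, 0.16 to 0.41 for *Cldn3*, -0.75 to 0.23 for *Cldn4* and -0.28 to 0.083 for *Cldn7*. It ranged from 0.12 to 0.51 for *Cldn8*, -0.22 to 0.052 for *Ocln* and -0.12 to 0.068 for *F11r*. The difference in summed claudin FPKM ranged from -239 to 142. With median-of-ratios scaling the *Cldn3* value was 0.13 and the *F11r* value -0.14, both outside these ranges. The *Cldn1* value was then -0.018 and the difference in summed claudin FPKM -164. The cause of these changes was not tested, beyond fewer libraries, and a lone knockout-labelled library was assumed to vary like the others. No paired analysis was possible because the labels give the groups no shared replicate numbers. With 3 libraries against 2, the 95% intervals of single members reach 1.19 in log2 below or 0.89 above 0. Depth limits *Cldn5* most, at 0 to 19.8 estimated fragments.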

Other observations

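Genes with the profile most like each member across the 5 libraries were sought among 2457 genes by the mean absolute difference of log2(FPKM + 1) values centred on each gene's mean. For *Cldn3* these were *Daxx* (0.063), *Dusp4* (0.068) and *Hnrnpl* (0.074), and for *Cldn8* they were *Clstn1* (0.060), *Dusp4* (0.067) and *Rnf19a* (0.069), so that *Dusp4* stood in both. *Dusp4* was at 74.7, 49.9 and 53.7 FPKM in wild type-labelled replicates 1, 2 and 3 and at 68.9 and 85.9 FPKM in knockout-labelled replicates 4 and 5. *Cldn4* was closest to *Hist3h2a* (0.11), *Fam110a* (0.14) and *Srebf2* (0.14), and *Cldn1* to *Ube2d1* (0.092) and *Wdr83* (0.12). *Cldn7* was closest to the ribosomal protein genes *Rps6* (0.091) and *Rpl17* (0.092) and to *Gm12191* (0.093). *Ocln* was closest to *Mprip* (0.080), *Rcan1* (0.085) and *Adck4* (0.093). All genes searched had an SD of at least 0.3, whereas the SD of each member but *Cldn4* and *Cldn5* was lower, from 0.10 to 0.28. For *F11r* none is named, since its nearest gene differed by 0.15 while its own values lay 0.083 from their mean on average, so that a gene without any variation would have been nearer. *Tjp1* was closest to *Wdfy2* (0.087), *Cnot1* (0.093) and *Smc1a* (0.094). *Cldn5* was closest to *Serpinb6a*, *S100a10* and *Smad3* (0.099, 0.10 and 0.10), at values where it rests on few fragments.

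Markers of further cell types differed between libraries. The 7 immune markers, led by *Cd74*, summed to 29.4, 946 and 250 FPKM in replicates 1, 2 and 3 and to 30.5 and 473 FPKM in replicates 4 and 5. In replicate 5 nearly all of this was *Cd74* (465 FPKM), while *Lyz2* (4.53 FPKM) and *Cd68* (2.71 FPKM) were far below replicate 2 (213 and 27.9 FPKM). The 9 basal markers, led by *Krt14* except in replicate 3, summed to 75.4, 141 and 13.9 FPKM and to 44.8 and 67.0 FPKM. Of the 5 tested, 0 were called. The fitted mean was higher in the knockout-labelled libraries for 2, *Oxtr* (log2 fold change 1.22) and *Krt14* (0.34), and lower for 3. Without overlap, 2 of the 5 were lower in the knockout-labelled libraries, against 5.77% of all genes tested. These were *Krt5*, at 1.53, 2.34 and 0.795 FPKM against 0.423 and 0.232 FPKM, and *Krt17*, at 6.04, 9.50 and 6.08 FPKM against 4.45 and 5.11 FPKM. The 6 luminal progenitor markers summed to 2712, 3538 and 2290 FPKM and to 2603 and 2811 FPKM, of which the casein gene *Csn3*, also a milk gene, gave most in every library. Of the 6, 0 were called, and 4 had a higher and 2 a lower fitted mean in the knockout-labelled libraries. Without overlap 1 was higher and 1 lower, against 17.5% and 5.77% of all genes tested. The lower one was *Aldh1a3*, at 5.91, 9.88 and 17.4 FPKM against 3.39 and 2.39 FPKM (log2 fold change -1.53, unadjusted p = 0.016, adjusted p = 0.92 by limma). The higher one was *Kit*, at 33.4, 25.1 and 39.3 FPKM against 47.5 and 44.0 FPKM (log2 fold change 0.50). *Cd14*, *Elf5* and *Csn3* overlapped, at log2 fold changes of -1.23, 0.36 and 0.024. The gene of the sort marker CD29, *Itgb1*, lay between 55.0 and 84.0 FPKM, and that of CD24, *Cd24a*, between 411 and 554 FPKM.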
